A study of Homo sapiens with 6 samples.

Results

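Zinc handling genes were examined in RNA-seq of HEK293FT cells, a fast-growing human embryonic kidney line carrying the SV40 large T antigen. The set holds the SLC30 and SLC39 zinc transporters, the metallothioneins of the MT1 group, MT2A, MT3 and MTF1, chosen by gene symbol. It has 36 members among 58884 listed genes: 10 SLC30 genes, 14 SLC39 genes, 11 metallothionein genes and MTF1. Cells in medium with fetal bovine serum received supernatant containing secreted ISLR (3 libraries, labelled ISLR) or empty-vector supernatant (3 libraries, labelled NC) for 72 h. The transcript of ISLR itself goes against these labels. Expressed as TPM, a length-corrected share of all transcripts, it was at 0, 0.02 and 0 in ISLR libraries 1, 2 and 3, whereas NC libraries 1, 2 and 3 held 510.32, 555.37 and 535.06 TPM. TPM keeps no record of sequencing depth, which is therefore unknown. Directions below are therefore those of the labels, and which supernatant a library received was not settled here.

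Zinc is a cofactor of many enzymes and transcription factors, and free zinc in the cytosol is held very low. SLC30 proteins (ZnT) move zinc out of the cytosol, across the plasma membrane or into organelles, and SLC39 proteins (ZIP) move it into the cytosol. Metallothioneins are small cysteine-rich proteins that bind zinc and copper. MTF1 is the zinc-sensing transcription factor that binds metal response elements and switches on metallothionein genes and SLC30A1 when zinc rises.

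In the libraries labelled ISLR, the exporters SLC30A5, SLC30A6 and SLC30A7 were higher, as were 8 of 11 tested zinc importers on the deposited scale (3 after scaling between libraries), and the importer SLC39A4 and the main metallothioneins were lower. SLC30A6 had 2.48 times, SLC30A7 1.82 times and SLC39A14 1.70 times the mean TPM of the NC libraries. SLC39A4, MT1X and MT2A had 1.44, 1.47 and 1.19 times more mean TPM in the NC libraries. Of the 36 members, 22 reached at least 1 TPM in at least 3 libraries and were tested, and 14 did not. Of these 22, 11 were called higher and 3 lower (limma on log2(TPM + 1), Benjamini-Hochberg adjusted p under 0.05 over 13869 genes). Over all tested genes, 45.9% were called, 38.5% higher and 7.38% lower, so a call higher was common. Log2 differences are given as ISLR minus NC by label, and their median was 0.22 over all tested genes and 0.19 over the 22 members.

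Because the typical gene was higher in the libraries labelled ISLR, a second fit used TPM rescaled between libraries by median-of-ratios factors, which took the median of all genes to 0.00135. On that scale 6 members were called higher and 3 lower, all of them also called as deposited, and 5 of the 11 calls higher were lost. Over all tested genes 38.6% were called after scaling, 18.2% higher and 20.4% lower. The groups did not overlap for 14 of the 22 members (11 higher and 3 lower), against 56.8% of all tested genes. The authors' deposited table called 9 of the 22 at an adjusted p under 0.05, against 51.2% of all tested genes. The labels do not say whether libraries came from separate cultures, so p-values measure only the spread between libraries, which may be technical. In bulk RNA, fewer cells expressing a gene and less RNA per cell cannot be told apart.

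**Figure D1:**
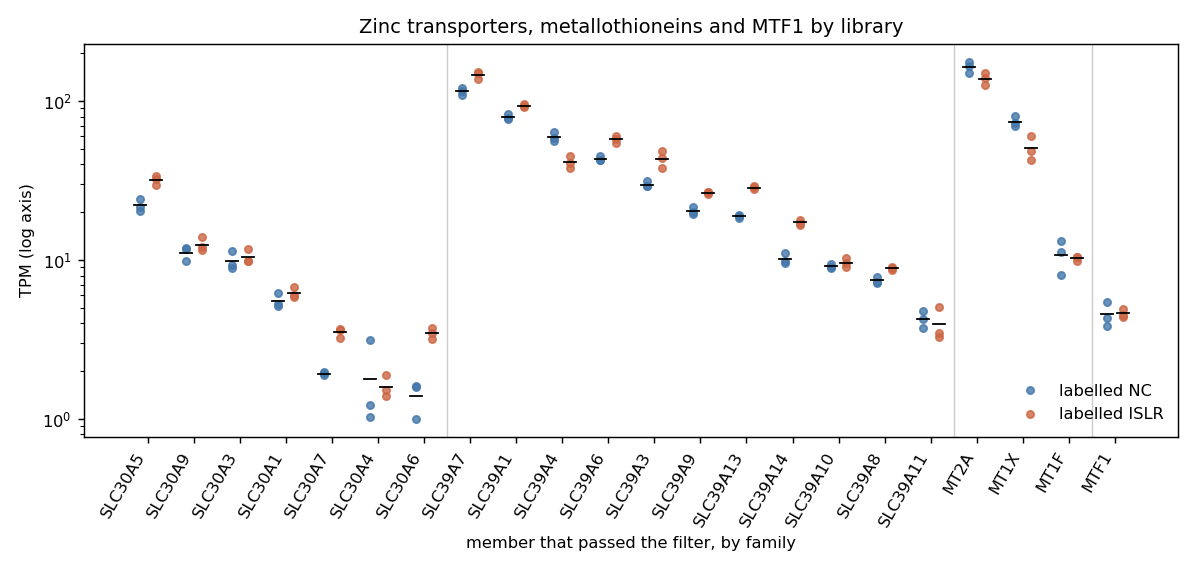
TPM (log axis) of the 22 tested members in each of the 6 libraries, grouped by family, with points for libraries and a black line for the mean of each group. The groups separate for 14 members, 11 with the libraries labelled ISLR above and 3 (SLC39A4, MT1X and MT2A) with them below.

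Among the 7 tested exporters, SLC30A5, SLC30A6 and SLC30A7 rose and the other 4 were not called. This share of calls higher, 42.9%, is near the 38.5% of all tested genes as deposited. After scaling the same 3 of 7 were called higher, against 18.2% of all tested genes. The family was not tested as a set. SLC30A5 and SLC30A6 form a heterodimer and SLC30A7 a homodimer in the Golgi and nearby vesicles, where they load zinc into secreted and membrane enzymes such as alkaline phosphatases. SLC30A6 was at 3.46, 3.2 and 3.74 TPM in ISLR libraries 1, 2 and 3 and at 1.59, 1 and 1.61 TPM in NC libraries 1, 2 and 3. Every ISLR library lay above every NC library. Its log2 difference was 0.91 (95% interval 0.56 to 1.25, limma adjusted p = 0.00259) and 0.74 after scaling (adjusted p = 0.00725). SLC30A7 was at 3.61, 3.23 and 3.71 TPM in the ISLR libraries and at 1.97, 1.88 and 1.95 TPM in the NC libraries. The NC values lay close together and below all ISLR values. The log2 difference of SLC30A7 was 0.62 (0.37 to 0.87, adjusted p = 0.00343), and 0.44 after scaling (adjusted p = 0.0154). SLC30A5, the most abundant SLC30 transcript, was at 32.48, 29.7 and 33.74 TPM against 24.17, 20.46 and 21.68 TPM. The groups did not overlap, and the log2 difference was 0.51 (0.33 to 0.70, adjusted p = 0.00227) and 0.27 after scaling (adjusted p = 0.0301). On the scaled values, the call of SLC30A5 was lost without ISLR 1, ISLR 3, NC 2 or NC 3 (adjusted p 0.0840 to 0.0946), and that of SLC30A7 without ISLR 1 or ISLR 3 (0.0539 and 0.0549). With scaling and the length trend removed SLC30A5 was not called (adjusted p = 0.0706), and SLC30A7 was not called once the trend with expression was taken out of the scaled values (0.0532). The authors' deposited table called all 3, with adjusted p of 2.14e-12 for SLC30A6, 8.66e-07 for SLC30A5 and 2.28e-06 for SLC30A7.

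The plasma membrane exporter SLC30A1, a classical MTF1 target, was at 5.85, 6 and 6.74 TPM against 6.22, 5.33 and 5.13 TPM. These values overlapped, and the log2 difference was 0.14 (-0.11 to 0.38, adjusted p = 0.330). After scaling it was -0.08 (adjusted p = 0.574). SLC30A9, a mitochondrial zinc exporter, had values from 9.91 to 13.88 TPM and an adjusted p of 0.269. SLC30A3, known for loading zinc into synaptic vesicles, ranged from 8.87 to 11.69 TPM (adjusted p = 0.566). SLC30A4, an endosomal transporter, ranged from 1.03 to 3.13 TPM, with the highest value in NC 1 (adjusted p = 0.933). SLC30A10, a manganese exporter, reached at most 0.6 TPM, SLC30A8 of insulin granules at most 0.04 TPM and SLC30A2, known from the mammary gland, at most 0.02 TPM.

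The summed TPM of the SLC30 genes was 69.21, 67.72 and 73.86 in the ISLR libraries and 58.09, 51.4 and 53 in the NC libraries (70.3 ± 3.20 against 54.2 ± 3.49, mean ± SD, n = 3 each). SLC30A5 made up 45.5% ± 1.55 of this sum in the ISLR libraries and 40.8% ± 0.908 in the NC libraries. SLC30A6 made up 4.93% ± 0.180 and 2.57% ± 0.564. After scaling the sums differed by 5.37 TPM and the groups overlapped.

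Among the importers, 8 of 11 tested SLC39 genes rose and 1 fell as deposited, and 3 rose and 1 fell after scaling. Over all tested genes the shares were 38.5% higher and 7.38% lower as deposited, and 18.2% and 20.4% after scaling, so the scaled counts of 3 and 1 among 11 importers are not far from the background. The authors' adjusted p, with the direction taken from mean TPM, called 1 of the 11 higher (SLC39A14) and 2 lower (SLC39A4 and SLC39A11). It called 51.2% of all tested genes in either direction. The median log2 difference of the 11 importers was 0.35 (0.10 after scaling). The largest rise was in SLC39A14, a carrier of zinc, manganese and iron at the plasma membrane. It was at 16.73, 17.89 and 17.19 TPM in the ISLR libraries and at 9.83, 9.6 and 11.12 TPM in the NC libraries. No NC library came near the ISLR values, and the log2 difference was 0.71 (0.53 to 0.90, adjusted p = 0.000614) and 0.48 after scaling (adjusted p = 0.00268). SLC39A14 was called in every alternative run, including the authors' deposited table (adjusted p = 1.12e-08).

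SLC39A13 and SLC39A3 were the other importers called on both scales. SLC39A13 releases zinc from Golgi-associated vesicles and is mutated in a form of Ehlers-Danlos syndrome. It was at 29.06, 28.01 and 28.74 TPM against 19.25, 18.84 and 18.49 TPM. Both groups were tight and well apart, with a log2 difference of 0.58 (0.45 to 0.70, adjusted p = 0.000363) and 0.34 after scaling (adjusted p = 0.00319). SLC39A3, a plasma membrane importer, was at 38.16, 48.35 and 43.98 TPM against 29.33, 31.28 and 29.08 TPM. The ISLR values were more spread than the NC values but all higher, and the log2 difference was 0.52 (0.31 to 0.73, adjusted p = 0.00314). After scaling it was 0.28 (adjusted p = 0.0363), and this call was lost without ISLR 2, ISLR 3, NC 1 or NC 3 (adjusted p of at least 0.0865). The authors' deposited table called neither SLC39A13 (adjusted p = 0.149) nor SLC39A3 (adjusted p = 0.513). In GENCODE, 12.7% of the 50-base windows of the SLC39A3 transcript are shared with the overlapping gene AC006538.2. That gene was at 11.75, 15.13 and 9.68 TPM in the ISLR libraries and at 9.07, 7.76 and 8.25 TPM in the NC libraries. The split of reads between the genes is uncertain, and its part in the SLC39A3 difference was not tested.

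The other 5 importers called higher were called as deposited but not after median-of-ratios scaling. SLC39A7 and SLC39A6 were also called higher under quantile normalization (limma adjusted p = 0.00572 and 0.0201). The same held with scaling and the expression trend removed (0.00485 and 0.0168), but not with scaling and the length trend removed. SLC39A1, SLC39A8 and SLC39A9 were called in none of these fits. SLC39A7, which releases zinc from the endoplasmic reticulum, had the highest level of all transporters. It was at 137.79, 150.03 and 153.63 TPM against 109.53, 120.28 and 115.47 TPM (log2 difference 0.35, adjusted p = 0.00216; 0.10 after scaling, adjusted p = 0.143). The plasma membrane importer SLC39A1 was at 96.05, 91.28 and 93.23 TPM against 78.15, 82.67 and 76.88 TPM (log2 difference 0.24, adjusted p = 0.00424; -0.0098 after scaling, adjusted p = 0.894). For both genes the lowest ISLR library lay above the highest NC library. SLC39A1 shares 71.3% of its windows with the overlapping gene AL358472.7, listed at 0 TPM in all libraries, so its level is uncertain.

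SLC39A6, a plasma membrane importer that pairs with SLC39A10, was at 60.55, 54.53 and 58.11 TPM against 42.36, 42.5 and 45.47 TPM (log2 difference 0.40, adjusted p = 0.00147; 0.16 after scaling, adjusted p = 0.0705). SLC39A9, found at the Golgi and plasma membrane, was at 26.13, 26.86 and 26.67 TPM against 21.57, 19.4 and 20.09 TPM (log2 difference 0.37, adjusted p = 0.00280; 0.13 after scaling, adjusted p = 0.118). Neither gene's groups overlapped. SLC39A8, a carrier of zinc, manganese and cadmium, was at 8.91, 8.68 and 9.03 TPM against 7.27, 7.85 and 7.22 TPM. Its groups were separate, but the log2 difference of 0.23 (adjusted p = 0.0485) was not called when any one of the 6 libraries was left out (adjusted p 0.0581 to 0.123), and it was 0.0037 after scaling.

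SLC39A4 was the importer that fell. It takes up dietary zinc in the intestine, and its loss causes acrodermatitis enteropathica. It was at 38.19, 45.15 and 40.97 TPM in the ISLR libraries and at 64.32, 56.42 and 58.62 TPM in the NC libraries (41.4 ± 3.50 against 59.8 ± 4.08, mean ± SD, n = 3 each). All ISLR values lay below all NC values. The log2 difference was -0.52 (-0.70 to -0.34, adjusted p = 0.00178) and -0.76 after scaling (adjusted p = 0.000384), and the call held in every alternative run. The authors' deposited table gave it an adjusted p of 1.16e-12.

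SLC39A10, the plasma membrane partner of SLC39A6, ranged from 8.86 to 10.3 TPM (log2 difference 0.07, adjusted p = 0.522; -0.16 after scaling). SLC39A11, a Golgi-associated importer, ranged from 3.3 to 5.09 TPM (log2 difference -0.10, adjusted p = 0.657). The deposited table of the authors gave SLC39A11 an adjusted p of 0.0102. SLC39A2, known from skin, reached at most 0.28 TPM, and SLC39A5, known from intestine and pancreas, at most 0.19 TPM. SLC39A12, known from brain, was listed at 0 in all libraries.

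The SLC39 genes summed to 464.12, 485.64 and 485.59 TPM in the ISLR libraries and 394.89, 402.76 and 395.97 TPM in the NC libraries. SLC39A4 made up 8.65% ± 0.566 of the sum in the ISLR libraries and 15.03% ± 1.16 in the NC libraries (mean ± SD, n = 3 each). SLC39A7 made up 30.7% ± 0.984 and 28.9% ± 1.08. After scaling the sums differed by 4.89 TPM and the groups overlapped.

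**Figure D2:**
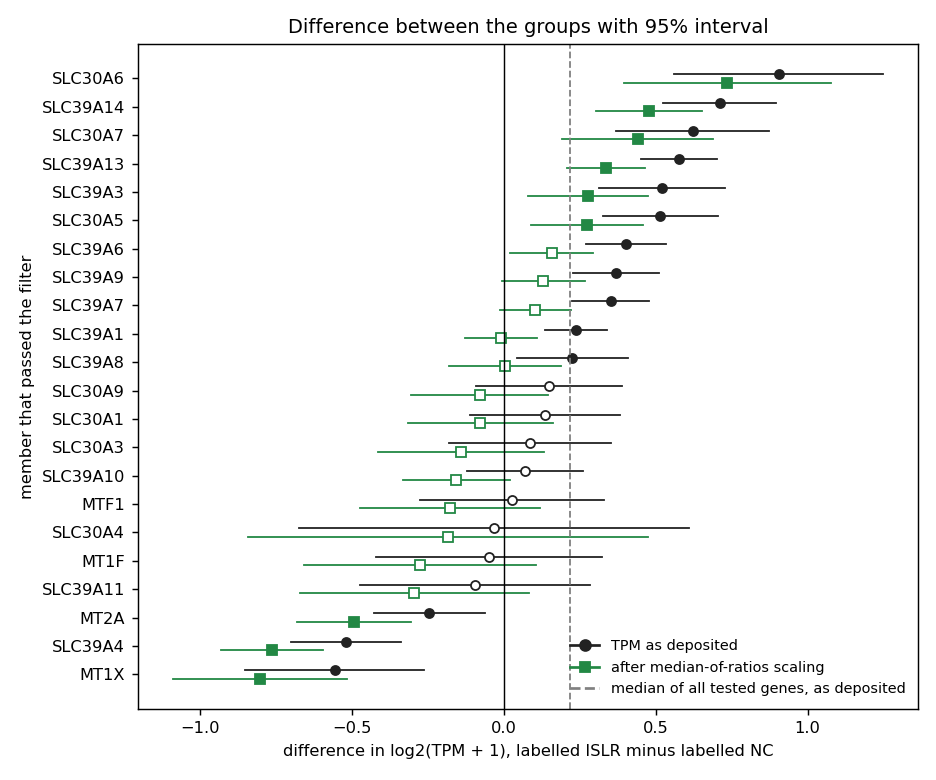
Log2 difference (labelled ISLR minus labelled NC) of the 22 tested members with 95% intervals, on deposited values (black circles) and after scaling (green squares), filled where adjusted p was under 0.05; the dashed line marks the median of all tested genes, 0.22. SLC30A6 and SLC39A14 lie farthest to the right, at 0.91 and 0.71 as deposited, and MT1X and SLC39A4 farthest to the left, at -0.56 and -0.52.

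The 11 metallothionein genes lie together on chromosome 16 between 56589074 and 56684196 (GRCh38, GENCODE), and only MT1G is on the minus strand. Of these, 3 were expressed above the filter, and MT2A and MT1X fell. These 2 of 3 were called lower on both scales, against 7.38% of all tested genes as deposited and 20.4% after scaling. The family was not tested as a set. To show the metal response elements known from this family, the 250 bases before the RefSeq start (GRCh38.p14) follow for the 2 metallothioneins that fell. SLC30A1, the MTF1 target that was not called, and SLC30A5, which rose, are printed for contrast. Capitals mark each match to the element's core, TGCACNC or TGCGCNC, on either strand. MT2A lies at chr16:56608334-56608583 and MT1X at chr16:56682220-56682469, both on the plus strand. SLC30A1 lies at chr1:211579162-211579411 on the minus strand and SLC30A5 at chr5:69093764-69094013 on the plus strand.
MT2A: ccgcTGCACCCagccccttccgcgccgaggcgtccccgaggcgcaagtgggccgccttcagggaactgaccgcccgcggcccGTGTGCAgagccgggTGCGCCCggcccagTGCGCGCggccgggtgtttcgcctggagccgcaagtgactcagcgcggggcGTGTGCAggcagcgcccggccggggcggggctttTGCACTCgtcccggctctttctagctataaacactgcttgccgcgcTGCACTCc
MT1X: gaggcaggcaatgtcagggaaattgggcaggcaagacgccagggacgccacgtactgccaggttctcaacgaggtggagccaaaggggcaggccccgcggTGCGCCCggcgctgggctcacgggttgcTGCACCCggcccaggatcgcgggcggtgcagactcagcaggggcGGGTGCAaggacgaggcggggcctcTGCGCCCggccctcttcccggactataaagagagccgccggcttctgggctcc
SLC30A1: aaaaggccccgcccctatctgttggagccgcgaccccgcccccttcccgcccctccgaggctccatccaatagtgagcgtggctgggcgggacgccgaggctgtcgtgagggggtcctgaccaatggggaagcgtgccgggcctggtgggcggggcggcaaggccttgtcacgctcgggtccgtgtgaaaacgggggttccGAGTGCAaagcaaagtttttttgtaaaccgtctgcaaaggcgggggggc
SLC30A5: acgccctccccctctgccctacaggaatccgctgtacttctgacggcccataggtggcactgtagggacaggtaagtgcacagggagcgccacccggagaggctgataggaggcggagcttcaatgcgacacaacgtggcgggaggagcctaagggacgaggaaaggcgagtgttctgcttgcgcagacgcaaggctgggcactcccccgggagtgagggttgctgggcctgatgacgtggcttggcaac
These windows hold 7 cores in MT2A, 4 in MT1X, 1 in SLC30A1 and 0 in SLC30A5. Among genes of the cluster under the filter, the window of MT1H holds 8 and that of MT1B holds 3. At least 3 cores in the bases before the start were found in 1.58% of all 35116 promoter records. The table matched 26 members with 35 records, of which 15 (42.9%) held at least 1 core before the start, as did 24.8% of all records. SLC30A6, which rose, holds 1, and SLC30A7 holds 0. SLC30A3, which was not called, holds 2 in its record 1 and 1 in its record 2. MT1F, which was not called, and SLC39A4, which fell, had no matched record. Searched over the whole 300-base record, an amino acid response element (TGATGNAAN, either strand) was found in SLC39A11 alone among the matched members and in 3.61% of all records. The heat shock element (3 GAA units in alternating orientation, each 2 bases apart) was found in 0 matched members and 0.490% of all records. A match is a sequence description and shows no binding.

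MT2A, the most abundant metallothionein, was at 149.39, 126.02 and 140.64 TPM in the ISLR libraries and at 165.66, 151.18 and 176.85 TPM in the NC libraries. The groups were separate by a narrow gap, between ISLR 1 and NC 2. The log2 difference was -0.25 (-0.43 to -0.06, adjusted p = 0.0368) and -0.49 after scaling (adjusted p = 0.00312). As deposited, the call was lost without ISLR 2, ISLR 3, NC 1 or NC 3 (adjusted p 0.0782 to 0.103), with no filter (0.0917), with limma without its trend and robust options (0.0791) and at a threshold of 0.01, and after scaling it held without any one library (highest adjusted p = 0.0144). MT1X was at 48.27, 42.91 and 60.55 TPM against 69.8, 80.19 and 72.84 TPM (50.6 ± 9.04 against 74.3 ± 5.34, mean ± SD, n = 3 each). All ISLR values were below all NC values, with ISLR 3 the nearest. The log2 difference of MT1X was -0.56 (-0.85 to -0.26, adjusted p = 0.0105) and -0.80 after scaling (adjusted p = 0.00258). The authors' deposited table called both, with adjusted p of 2.59e-06 for MT2A and 8.36e-07 for MT1X.

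MT1F, a further expressed metallothionein, was at 10.42, 9.88 and 10.46 TPM against 8.09, 13.23 and 11.18 TPM. The NC values enclosed the ISLR values, and the log2 difference was -0.05 (adjusted p = 0.821; -0.28 after scaling, adjusted p = 0.218). MT1E was listed at 0.12, 0 and 0.64 TPM in the NC libraries and at 0 in the ISLR libraries. MT1B reached 0.4 TPM in ISLR 1, MT1H 0.39 TPM in NC 2 and the pseudogene MT1L 0.35 TPM in NC 2, each at 0 elsewhere. MT1A, MT1G, MT1M and the brain metallothionein MT3 were listed at 0 in all libraries.

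Metallothionein genes are short and alike, which bears on how reads are assigned. Of the 50-base windows of the longest coding transcript, 55.8% in MT1X were shared with the overlapping AC026461.1, which was listed at 0 TPM in all libraries, and 4.88% in MT2A and 3.59% in MT1F were shared with other genes. The gene length in the deposited table was 1727 for MT1X, 903 for MT2A and 1573 for MT1F, equal to retained-intron transcripts in GENCODE, whose longest coding ones have 538, 786 and 690 bases. The absolute level of MT1X and MT1F against other genes may therefore depend on that length. A length fixed over all libraries would not enter a comparison of 1 gene between them, but the length behind the TPM was not given. After the trend with gene length was removed with scaling, MT2A was at -0.32 (limma adjusted p = 0.0206) and MT1X at -0.71 (adjusted p = 0.00563). With scaling alone they were at -0.49 and -0.80. The trend was fitted on the same deposited lengths.

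Metallothionein TPM summed to 208.48, 178.81 and 211.65 in the ISLR libraries and 243.67, 245.34 and 261.51 in the NC libraries (200 ± 18.1 against 250 ± 9.85, mean ± SD, n = 3 each). The groups did not overlap, and the difference of -50.5 TPM was -89.3 TPM after scaling. MT2A made up 69.5% ± 2.73 of the sum in the ISLR libraries and 65.7% ± 3.58 in the NC libraries, and MT1X 25.3% ± 2.94 and 29.7% ± 2.59.

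**Figure D3:**
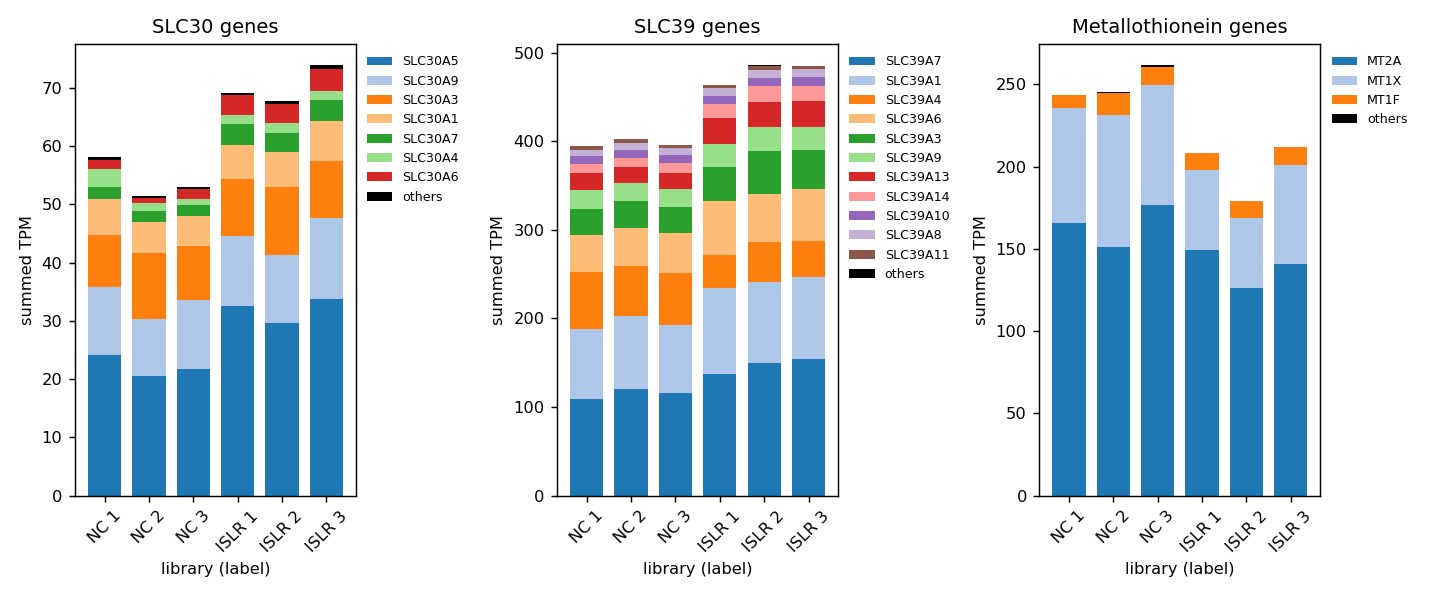
Stacked bars of summed TPM per library for SLC30, SLC39 and metallothionein genes, 1 panel per family, with the members as segments. Metallothionein totals were 178.81 to 211.65 TPM in the libraries labelled ISLR and 243.67 to 261.51 TPM in those labelled NC, and both transporter totals were higher in the libraries labelled ISLR as deposited but overlapped after scaling.

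MTF1 itself was at 4.5, 4.96 and 4.41 TPM in the ISLR libraries and at 4.34, 3.87 and 5.45 TPM in the NC libraries. The values overlapped, with a log2 difference of 0.03 (-0.28 to 0.33, adjusted p = 0.880) and -0.18 after scaling (adjusted p = 0.303). The authors' deposited table gave MTF1 an adjusted p of 0.00903 at mean TPM of 4.62 and 4.55.

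The lists that follow are read against the background of 38.5% higher and 7.38% lower as deposited, and 18.2% higher and 20.4% lower after scaling, and no list was tested as a set. Of 7 tested genes reported elsewhere as MTF1 targets, 2 rose and 0 fell as deposited, and after scaling 1 was higher and 3 were lower. NDRG1, a stress-response gene, rose by a log2 difference of 0.18 (adjusted p = 0.00167; -0.07 after scaling), and the transcription factor CEBPA by 0.54 (adjusted p = 0.0101). The copper pump ATP7A had 0.83 (adjusted p = 0.0555) and the glutathione synthesis gene GCLC 0.11 (adjusted p = 0.514). ATP7A was at 1.29, 1.83 and 4.03 TPM in the ISLR libraries and at 0.5, 0.83 and 1.1 TPM in the NC libraries. NC 1 and NC 2 lay under the filter of 1 TPM, so ATP7A was tested only because of the ISLR libraries, where it was higher. Its levels were low, and the size of its difference leans on ISLR 3. The median of the 7 was 0.11, against 0.22 over all tested genes.

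Zinc enzymes of the secretory pathway, which receive zinc there, were tested for 8 of 14 genes. Of these, 4 rose and 1 fell, and after scaling 0 were higher and 2 lower, which is not far from the background (38.5% and 7.38% as deposited, 18.2% and 20.4% after scaling). MPPE1 (log2 difference 0.54, adjusted p = 0.00936), CPD (0.49, 0.0189), CA12 (0.44, 0.0262) and ENPP1 (0.32, 0.0314) were the ones that rose. CPE, a carboxypeptidase of secretory granules, was lower (-0.16, adjusted p = 0.0347). ALPL, the tissue-nonspecific alkaline phosphatase, was at 5.36, 6.01 and 6.58 TPM against 7.08, 7.43 and 7.32 TPM. Its groups were separate, at -0.25 (adjusted p = 0.0698) as deposited and -0.46 after scaling (adjusted p = 0.00649).

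Further zinc handling genes included 9 tested of 11, with 1 higher and 1 lower (0 and 4 after scaling). The divalent metal carrier SLC11A2 rose by 0.26 (adjusted p = 0.0167; 0.02 after scaling). CBWD3, a zinc chaperone gene with near-identical copies whose counts are uncertain, had a log2 difference of -0.23 (adjusted p = 0.00614). CBWD1 was at 0.20 (adjusted p = 0.0841) and CNNM4 at 0.13 (adjusted p = 0.162).

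Among copper genes, 7 of 13 tested rose and 4 fell (3 and 4 after scaling). The 7 include STEAP2, at 1.41, 1.4 and 1.7 TPM in the ISLR libraries and 0.89, 0.88 and 0.82 TPM in the NC libraries. It passed the filter only through the ISLR libraries, where it was higher, so its count as a rise depends on that filter. The mitochondrial copper chaperone SCO1 rose by 0.59 (adjusted p = 0.000363), CCS, which loads SOD1, by 0.54 (0.00235), SCO2 by 0.51 (0.00442) and the metalloreductase STEAP3 by 0.50 (0.00184). Those lower were the chaperones ATOX1 and COX17, COMMD1 and SOD1. Among iron genes, 6 of 13 rose and 1 fell (2 and 4 after scaling), near the 38.5% and 7.38% of all tested genes as deposited. The ferritin light chain FTL was lower, at 1101.67, 1094.66 and 1086.71 TPM against 1413.13, 1416.41 and 1411.51 TPM (log2 difference -0.37, adjusted p = 5.22e-05). PCBP1, an iron chaperone, was at 0.70 (adjusted p = 5.22e-05), and the mitochondrial iron importers SLC25A28 and SLC25A37 were at 0.48 (0.00173) and 0.44 (0.00256). Of 7 manganese and magnesium transport genes tested, 4 rose and 0 fell (1 and 0 after scaling). The Golgi manganese and calcium transporter TMEM165 was at 0.87 (adjusted p = 0.000777; 0.63 after scaling, adjusted p = 0.00325), ATP13A1 at 0.59 (0.00817), CNNM3 at 0.31 (0.00851) and MRS2 at 0.26 (0.0146).

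Markers of the labelled line were expressed, with 7 of 7 above the filter and a summed level of 1360.9 to 1413.35 TPM in the ISLR libraries and 1247.39 to 1271.76 TPM in the NC libraries. VIM held most of that sum, at 1218.81 to 1259.53 TPM in the ISLR libraries and 1116.16 to 1137.29 TPM in the NC libraries. Of these 7 markers, 4 were called higher and 0 lower as deposited, and 0 higher and 3 lower (VIM, KRT8 and PAX2) after scaling. PAX2 was at 0.95, 0.81 and 0.95 TPM in the ISLR libraries and at 1.47, 1.5 and 1.17 TPM in the NC libraries. It passed the filter only through the NC libraries, where it was higher, so its call depends on that filter. Stromal markers had 2 of 7 above the filter (13.33 to 14.13 against 11.07 to 16.82 TPM, THY1 at 0) and blood markers 2 of 4 (32.26 to 33.82 against 29.63 to 35.72 TPM, HBB at 0). Endothelial markers had 0 of 3 (at most 0.1 TPM). The blood marker CD68 was higher in the libraries labelled ISLR (log2 difference 0.57, adjusted p = 0.00119; 0.34 after scaling, adjusted p = 0.0114). HBA1, the other blood marker above the filter, ranged from 20.51 to 27.77 TPM (log2 difference -0.16, adjusted p = 0.207; -0.40 after scaling, adjusted p = 0.0173). The part of these levels in the results above was not tested.

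**Figure D4:**
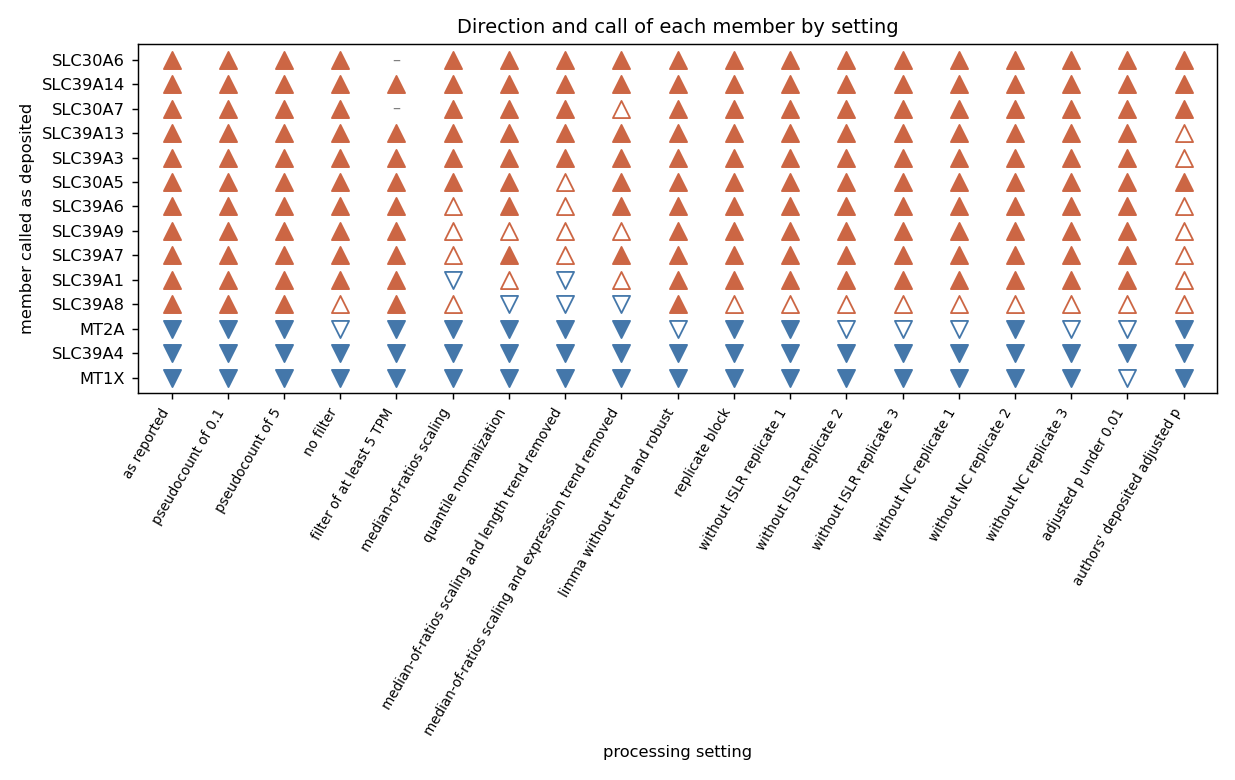
Calls of the 14 members called as deposited under each processing alternative, with upward triangles for higher and downward triangles for lower in the libraries labelled ISLR, filled where called. SLC39A14 and SLC39A4 are filled in every column and SLC30A6 in every column where it was tested, while SLC39A8 is open in most.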

How the data were processed

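RNA-seq of 6 libraries (3 labelled ISLR, 3 labelled NC) was used, grouped by the labels and matched by title. TPM per gene and library was deposited by the authors, with p-values and adjusted p-values of their comparison in the same deposited table, whose name carries DESeq2. HISAT2, Cufflinks, RSEM and GRCh38.p10 are named without role, per the submitters' processing notes. The tool behind the TPM, the strand setting and the input of the authors' comparison were not given in the sources used here. TPM totals (984556.67 to 987783.8) keep no depth, so no counting interval is given and no count model was run. One blank row was left out.

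The 13869 genes reaching 1 TPM in 3 or more libraries were fitted with limma 3.58.1 (R 4.3.3, trend and robust) on log2(TPM + 1), two-sided, with adjusted p under 0.05. The pseudocount of 1 understates changes of low genes. The procedure was tested on simulated data without a shift common to all genes, so that test does not bear on the choice of scale. Alternatives were other pseudocounts and filters, scalings, removal of trends with length or expression (lowess span 0.3), a replicate block and single libraries left out. Further ones were limma without trend and robust, a threshold of 0.01 and the authors' adjusted p, with the direction taken from mean TPM. Gene positions came from GENCODE and promoters from RefSeq (26 of 36 members matched). Protein sequences were not used here. Every member is named; of other lists, up to 4 tested genes with the smallest p, and others named with values were chosen after their values were seen. The members and lists were chosen with earlier results of these data known. Figures used matplotlib 3.10.9 in Python 3.11.15.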

Additional observations from a re-analysis of the deposited data

How the results depend on the processing

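As deposited, 11 members were higher and 3 lower. The number higher was 6 after scaling, 5 with scaling and the length trend removed, 7 with scaling and the expression trend removed and 5 by the authors' calls, and the number lower was 1 at an adjusted p under 0.01; the cause was not tested. Leaving out single libraries gave 10 higher and 2 to 3 lower as deposited, and 3 to 6 higher after scaling. The lowest count, 3, was without ISLR 3. Sums after scaling differed by -89.3 TPM for metallothioneins, 5.37 for SLC30 and 4.89 for SLC39. As deposited, the metallothionein sums differed by -50.5 TPM, and by -24.6 TPM without MT2A. Signs turned, mostly in members without a call, under scaling, quantile normalization, scaling with length and scaling with expression, in that order: MTF1 -0.18, -0.25, -0.27 and -0.29, SLC30A1 -0.078, -0.16, -0.17 and -0.18, SLC30A9 -0.080, -0.12, -0.18 and -0.14, SLC30A3 -0.14, -0.19, -0.18 and -0.21, and SLC39A10 -0.16, -0.21, -0.25 and -0.23. SLC39A10 was then called lower in the length and expression fits (limma adjusted p 0.0337 and 0.0493). SLC39A1, called as deposited, was -0.0098 with scaling and -0.012 with length. SLC39A8, also called as deposited, was -0.071 with quantile, -0.057 with length and -0.084 with expression. Without single libraries the log2 difference ranged for MTF1 -0.063 to 0.14, MT1F -0.23 to 0.097 and SLC30A4 -0.22 to 0.29, and after scaling for SLC39A1 -0.043 to 0.028, SLC39A8 -0.021 to 0.045 and SLC30A4 -0.39 to 0.14. Of 391 values of members under 18 alternatives, 322 kept their direction and side of the threshold and 30 changed sign, some of them with a change of call as given above. Among values that kept their sign, 37 lost the call and 2 gained one. The 5 TPM filter gave no value for SLC30A4, SLC30A6, SLC30A7, SLC39A11 and MTF1. Same-numbered libraries did not deviate together (r 0.0201, 0.0468 and -0.0556), and not every library correlated best with its own number. No pairing by number was seen, but these correlations are too few to exclude one, and the labels do not give it. A replicate block gave 10 higher and 3 lower as deposited, and 6 and 3 after scaling. The block and single omissions on scaled values were chosen after seeing the data. Depth is unknown and limits low genes most.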
